A study of Ramazzottius varieornatus with 18 samples.

Results

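The transcripts described here were the 150 of *R. varieornatus* that stood highest at Juvenile 4d and lowest at Juvenile 2d. They were drawn from 18 libraries of whole juveniles of the strain YOKOZUNA-1, which descends from a single individual, with 3 libraries for each of the days Juvenile 2d, 3d, 4d, 5d, 6d and 7d. The labels give no treatment, and the animals were kept on agar with *Chlorella vulgaris*, and the number of animals in a library was not used here. The labels do not say that replicates came from separate cultures, so p-values measure only the spread between these libraries, which may be technical. Levels are in TPM, the usual read measure per coding length that sums to the same total in every library.

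The members were chosen from these same values. A gene could be a member if it had 1 predicted transcript, a mean from 5 to under 1000 TPM over the 18 libraries and no name in the study's lists, which left 7390 of 13369 genes with 1 transcript. Of these, 1282 had their highest day mean at Juvenile 4d and their lowest at Juvenile 2d, with all 3 values of Juvenile 4d above all 3 of Juvenile 2d. They were ranked by the log2 ratio of the 2 day means, each with 1 TPM added, and the first 150 were kept. Differences that involve Juvenile 2d or 4d are therefore given without a test. The rule placed the means of the other 4 days between these extremes but did not fix their order, so only Juvenile 5d against 3d, 6d against 5d and 7d against 6d were tested.

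Tardigrades grow by molting, in which the cuticle with its claws and the lining of the mouth and foregut is shed and built again. In insects molting is set off by pulses of the steroid ecdysone. The hormone binds the nuclear receptor pair *EcR* and *USP/RXR*, which switches on early genes such as *E74*, an ETS-type transcription factor, and *E75*, a nuclear receptor. The nuclear receptors *HR3* and *HR4* follow, and the nuclear receptor *bFtz-F1* comes on once the pulse has fallen. *sad* encodes a late enzyme of ecdysone synthesis and *CYP18A1* an enzyme that breaks the hormone down. The study named 12 transcripts of this pathway in *R. varieornatus*. None of them could be a member, and they are given here beside the members. The members themselves are known by their transcript identifiers, and no name, function, sequence or position was assigned to them here.

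Estimated counts summed to between 1250604 (Juvenile 7d replicate 3) and 5095736 (Juvenile 6d replicate 1) in a library. Both libraries stood apart from the others of their day by depth, and Juvenile 6d replicate 1 also by the lowest level of the members, so tested counts are given with and without them. All 150 members were among the 10436 transcripts tested.

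The members were nearly silent at Juvenile 2d and took a measurable share of the transcriptome at Juvenile 4d. Their summed level was 0.0243% ± 0.00126 of all TPM at Juvenile 2d, 1.16% ± 0.461 at 3d, 5.13% ± 1.05 at 4d, 1.21% ± 0.230 at 5d, 0.831% ± 0.614 at 6d and 1.42% ± 0.0694 at 7d (mean ± SD, n = 3 each). The 3 libraries of Juvenile 4d stood at 6.33%, 4.34% and 4.73%, above every other library. The highest of the other 15 was at 1.5%. Because whole animals were sequenced, a change in the number of cells that express a transcript and a change in its level per cell cannot be told apart.

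**Figure D1:**
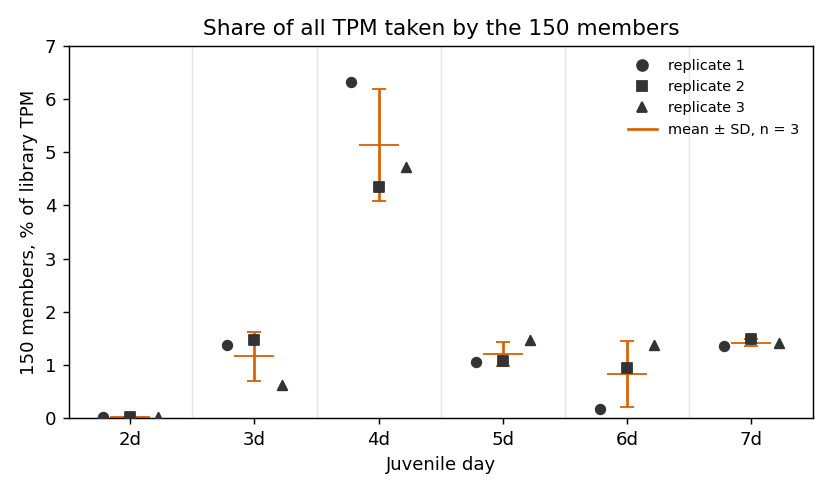
Summed TPM of the 150 members as a percentage of all TPM in each of the 18 libraries, by juvenile day, with the mean and SD of each day (n = 3). The 3 libraries of Juvenile 4d sit between 4.34% and 6.33%, those of Juvenile 2d lie near 0, and Juvenile 6d replicate 1 sits at 0.166%.

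The median member had a day mean of 0.601 TPM at Juvenile 2d, 29.7 TPM at 3d, 189.8 TPM at 4d, 39.4 TPM at 5d, 30.2 TPM at 6d and 41.2 TPM at 7d. The log2 ratio that ranked the members ran from 11.17 for g4460.t1 to 4.65 for g4845.t1, with a median of 6.37. The choice of 150 fell on no gap in the values. The last but one, g6271.t1, had 1007 ± 255 TPM at Juvenile 4d against 38.9 ± 14.3 TPM at Juvenile 2d, and rank 150, g4845.t1, had 53.2 ± 24.1 TPM at Juvenile 4d against 1.17 ± 2.02 TPM at Juvenile 2d. The first transcripts left out, g13118.t1 and g11359.t1, had 23.7 ± 18.9 and 23.5 ± 12 TPM at Juvenile 4d and were listed at 0 in all 3 libraries of Juvenile 2d.

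Reads were few at Juvenile 2d. Over the 3 libraries of that day together, 18 members had no count, 31 had above 0 and up to 3 counts, 70 had over 3 and up to 30, and 31 had more. The median was 9 counts. A fold against Juvenile 2d is for most members a bound or a wide interval, which covers counting error only.

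The first-ranked member, g4460.t1, is a short coding sequence of 381 bases. It had 0 TPM in all 3 libraries of Juvenile 2d, 598, 63.2 and 7.57 TPM at 3d, and 3245, 1667 and 1986 TPM at 4d. On the later days it had 992, 1596 and 1834 TPM at Juvenile 5d, 434, 1695 and 77.3 TPM at 6d, and 0, 114 and 2726 TPM at 7d. Its mean at Juvenile 4d was at least 965-fold higher than at Juvenile 2d, taking 3 counts over the 3 libraries of Juvenile 2d as the floor. Among the later libraries it ran from undetected in one Juvenile 7d library to a level in another that exceeded 2 of the 3 Juvenile 4d libraries.

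The second, g5812.t1, had 0, 1.43 and 0.457 TPM at Juvenile 2d, 934, 392 and 54.8 TPM at 3d, and 3759, 1385 and 1747 TPM at 4d. After the peak it had 438, 543 and 565 TPM at Juvenile 5d, 19, 388 and 429 TPM at 6d, and 424, 513 and 207 TPM at 7d. With 4 counts in all at Juvenile 2d, its ratio of Juvenile 4d to 2d was 3646, with a 95% counting interval of 1424 to 13382. g4460.t1, g5812.t1 and g3756.t1 had the 3 highest means of all members over the 18 libraries. Counts of g5812.t1 were not whole in 15 libraries, so some of its reads were divided with a similar transcript and its level is uncertain.

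The third, g1833.t1, had 0.607, 0.869 and 0 TPM at Juvenile 2d, 185, 76.8 and 2.70 TPM at 3d, and 2249.6, 1543 and 2066 TPM at 4d. Later it had 442, 467 and 381 TPM at Juvenile 5d, 17.3, 362 and 291 TPM at 6d, and 1.45, 216 and 321 TPM at 7d. The 3 libraries of Juvenile 4d did not overlap those of any other day, and both Juvenile 6d replicate 1 and Juvenile 7d replicate 1 were far below their fellow libraries.

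g588.t1, rank 8, is another short coding sequence, of 345 bases. It had 0 TPM in all 3 libraries of Juvenile 2d, 48.2, 74.7 and 0 TPM at 3d, and 596, 657 and 657 TPM at 4d. Past the peak its libraries held 75.7, 49.6 and 92.6 TPM at Juvenile 5d, 0, 19.7 and 25.9 TPM at 6d, and 0, 37.3 and 30.2 TPM at 7d. Values at Juvenile 4d were close together, and 1 library each of Juvenile 3d, 6d and 7d held no count.

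**Figure D2:**
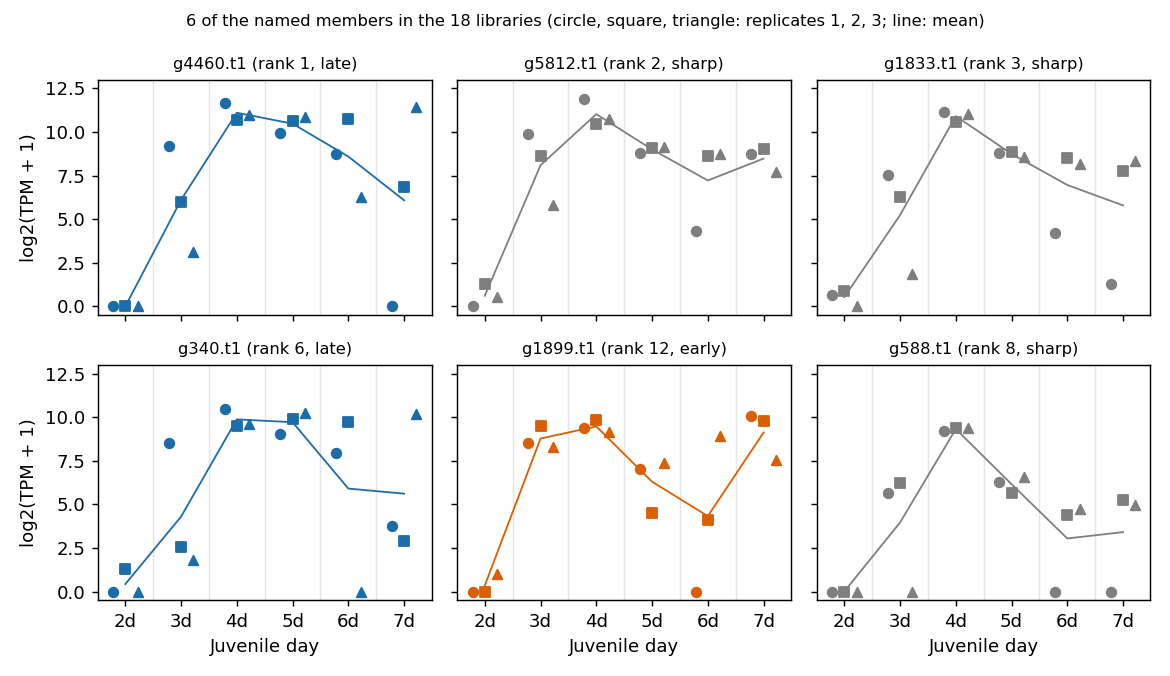
Level of 6 named members as log2(TPM + 1) in the 18 libraries by juvenile day. Symbols are replicates 1, 2 and 3 and the line joins the day means of the plotted values. g588.t1 and g1833.t1 fall away on both sides of Juvenile 4d, g1899.t1 is also high at Juvenile 3d and 7d, and g4460.t1 and g340.t1 are also high at Juvenile 5d.

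The rest of the 15 highest-ranked members had day means at Juvenile 4d between 462.7 TPM (g8902.t1) and 1182 TPM (g1051.t1), against 0 to 1.06 TPM at Juvenile 2d. They were g1051.t1, g5836.t1, g340.t1, g968.t1, g8875.t1, g7564.t1, g12958.t1, g1899.t1, g5833.t1, g8902.t1 and g13562.t1. Their coding sequences ran from 423 bases (g340.t1) to 4188 bases (g5836.t1). Counts of g13562.t1 were not whole in 7 libraries.

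Around the shared peak the courses differed. The position of a day was taken as its mean above the Juvenile 2d mean in percent of the distance to the Juvenile 4d mean. The median position was 12.5% at Juvenile 3d, 17.8% at 5d, 14.4% at 6d and 20.8% at 7d. The second highest day was Juvenile 3d for 27 members, 5d for 69, 6d for 4 and 7d for 50. Members were called early where Juvenile 3d stood at 50% or above and 5d below, late where 5d stood at 50% or above and 3d below, and sharp where both stood below. There were 17 early, 19 late and 114 sharp members, and 0 that stood at 50% or above on both days. These classes depend on the scale: positions taken on log2(TPM + 1) gave 7 early, 39 late, 10 sharp and 94 with both days at 50% or above.

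**Figure D3:**
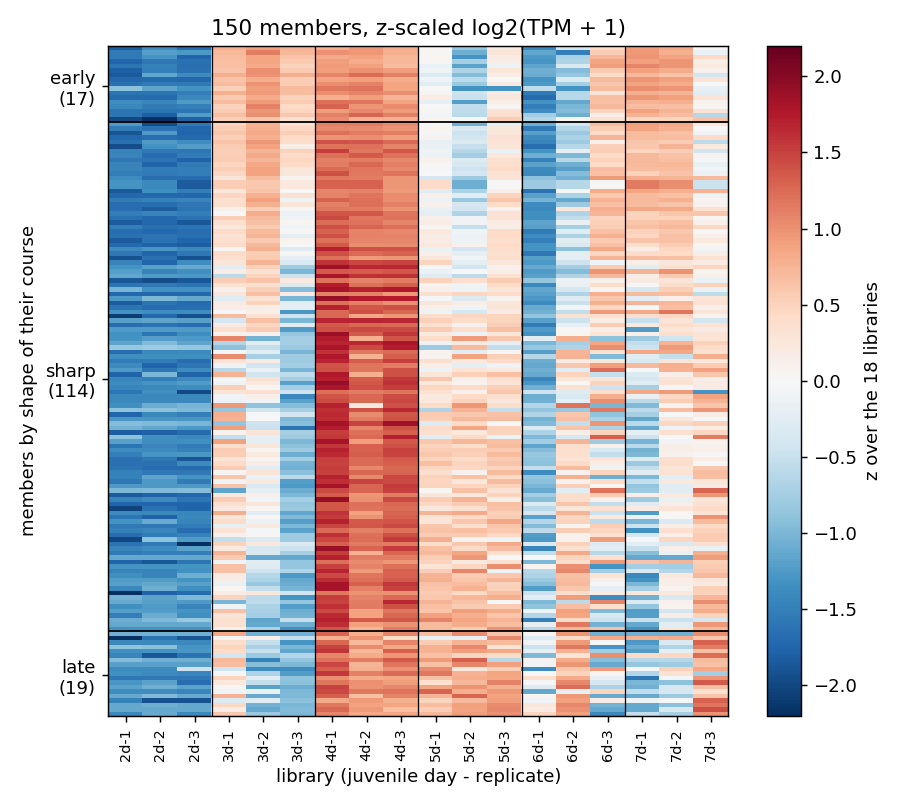
The 150 members (rows, grouped as early, sharp and late) in the 18 libraries (columns, by juvenile day and replicate), as log2(TPM + 1) scaled to z over the libraries. All are low in the 3 libraries of Juvenile 2d and high in those of 4d, while Juvenile 6d and 7d show columns of unlike level within a day.

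The sharp members had median positions of 11.3% at Juvenile 3d, 17% at 5d, 12.8% at 6d and 17.2% at 7d. g5836.t1 is an example with a long coding sequence. It had 0.367, 0.146 and 0.0839 TPM at Juvenile 2d, 163, 312 and 63.3 TPM at 3d, and 1337, 632 and 668 TPM at 4d. The following days gave it 106, 78 and 171 TPM at Juvenile 5d, 2.26, 29.5 and 268 TPM at 6d, and 149.6, 227 and 68.6 TPM at 7d. Its values at Juvenile 4d were all above those of the other 15 libraries, and Juvenile 6d spread from 2.26 to 268 TPM.

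The early members were already high at Juvenile 3d, low at 5d and high again at 7d. Their median positions were 66.4% at Juvenile 3d, 14.4% at 5d, 19.2% at 6d and 61.4% at 7d. Of the 17, 12 stood at 50% or above at Juvenile 7d and above their own Juvenile 5d, as did 6 sharp and 4 late members.

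g1899.t1, rank 12 and the first of the early members, had 0, 0 and 1.04 TPM at Juvenile 2d, 367, 716 and 315 TPM at 3d, and 666, 928 and 574 TPM at 4d. After Juvenile 4d it had 128, 22 and 163 TPM at Juvenile 5d, 0, 15.8 and 476 TPM at 6d, and 1071, 868 and 183 TPM at 7d. Juvenile 3d and 4d overlapped. At Juvenile 7d replicates 1 and 2 were at the level of Juvenile 4d or above it, and replicate 3 was far below.

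g13561.t1, rank 29, had a similar course. It had 0.0673, 0.579 and 0.371 TPM at Juvenile 2d, 230.1, 370.2 and 192 TPM at 3d, and 411, 319 and 270.4 TPM at 4d. On the later days it had 55.7, 9.24 and 70.8 TPM at Juvenile 5d, 1.96, 10.9 and 369 TPM at 6d, and 397, 450.3 and 69.6 TPM at 7d. In both transcripts Juvenile 6d replicate 3 was the one high library of its day.

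The late members were low at Juvenile 3d and stayed high at 5d. Their median positions were 11.1% at Juvenile 3d, 61.7% at 5d, 36.1% at 6d and 39.4% at 7d. g340.t1, rank 6, had 0, 1.42 and 0 TPM at Juvenile 2d, 363, 4.86 and 2.53 TPM at 3d, and 1437, 720.1 and 790.5 TPM at 4d. After the peak it had 518, 938 and 1206 TPM at Juvenile 5d, 249, 858 and 0 TPM at 6d, and 12.7, 6.47 and 1142 TPM at 7d. Juvenile 4d and 5d overlapped, Juvenile 3d replicate 1 stood far above its fellow libraries, and the high libraries of the last days were Juvenile 6d replicate 2 and 7d replicate 3.

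The spread within a day was wide for these members and differed by day. The median coefficient of variation over 3 libraries was 72.2% at Juvenile 3d, 24.6% at 4d, 39.5% at 5d, 126.5% at 6d and 67.1% at 7d. Among the 7390 genes that could be members it was 11.7%, 12.7%, 13.8%, 35.2% and 23.8% on the same days. At Juvenile 3d, replicate 3 held the lowest value for 131 of the 150 members and the highest for 0. At Juvenile 6d, replicate 1 held the lowest value for 118 and the highest for 0. Of the 12 pathway transcripts 11 had their lowest value of the day in that library, and *E78* in replicate 2, with a mean z over the 12 of -0.949, 0.182 and 0.857 in replicates 1, 2 and 3 of Juvenile 6d.

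Early and late members were high in different libraries of one day. The early members had a median of 3.05, 11.5 and 121.0 TPM in replicates 1, 2 and 3 of Juvenile 6d, and of 265.9, 230.8 and 48.7 TPM in those of Juvenile 7d. The late members had 8.91, 51.1 and 1.95 TPM in those of Juvenile 6d, and 0.704, 5.35 and 77.1 TPM in those of Juvenile 7d. Of the early members, 17 of 17 were highest in replicate 3 of Juvenile 6d and 16 of 17 lowest in replicate 3 of Juvenile 7d. Of the late members, 15 of 19 were highest in replicate 2 of Juvenile 6d and 17 of 19 highest in replicate 3 of Juvenile 7d. The same held at Juvenile 3d, where 17 of 17 early members were highest in replicate 2 and 17 of 19 late members highest in replicate 1. The 114 sharp members were divided. At Juvenile 6d 71 of them were highest in replicate 3 and 43 in replicate 2. At Juvenile 3d 65 were highest in replicate 2 and 49 in replicate 1. At Juvenile 7d 54 were highest in replicate 3, 40 in replicate 2 and 20 in replicate 1. Juvenile 7d replicate 3 had the fewest counts, and the part of depth in these differences was not tested.

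Several named transcripts of the molting pathway had a course like that of the members. *HR3* had 1.56, 1.21 and 1.51 TPM at Juvenile 2d, 69.4, 188 and 27.4 TPM at 3d, and 692, 612 and 447 TPM at 4d. It had 58.0, 20.8 and 127 TPM at 5d, 3.41, 9.76 and 254 TPM at 6d, and 196, 221 and 89.3 TPM at 7d. The 3 libraries of Juvenile 4d were above the rest, and Juvenile 6d held one high library.

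*EcR* g8354.t1 had 6.68, 6.21 and 6.29 TPM at Juvenile 2d, 66.3, 28 and 16.7 TPM at 3d, and 388, 159 and 232 TPM at 4d. It had 86.7, 74.1 and 91.2 TPM at 5d, 12.9, 113 and 47.3 TPM at 6d, and 26.5, 42.6 and 78.1 TPM at 7d. The other *EcR*, g12979.t1, did not have this peak, with 37.5 ± 4.63 TPM at Juvenile 4d and its highest mean, 69.2 ± 38.6 TPM, at 6d.

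*bFtz-F1* averaged 0.754 ± 0.499 TPM at Juvenile 2d, 5.46 ± 3.00 at 3d, 53.0 ± 8.56 at 4d, 3.14 ± 1.49 at 5d, 10.8 ± 15.3 at 6d and 15.2 ± 7.67 at 7d. *HR4* averaged 0.433 ± 0.300 TPM at Juvenile 2d, 35.5 ± 10.9 TPM at 4d and 14.9 ± 2.84 TPM at 5d. *E74* and both *USP/RXR* transcripts also had their highest mean at Juvenile 4d. Others of the list lacked a clear peak there. *sad* averaged 44.7 ± 12.9 TPM at Juvenile 3d and 41.8 ± 6.94 TPM at 4d. *E78* averaged 66.2 ± 29.6 TPM at 3d, 67.6 ± 24.4 TPM at 4d and 65.4 ± 37.0 TPM at 7d. *E75* averaged 27.0 ± 3.35 TPM at 4d and 23.5 ± 3.43 TPM at 5d. *CYP18A1* had its highest mean at Juvenile 7d instead, at 289.5 ± 273.7 TPM.

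The members most like *HR3* over the 18 libraries by Pearson's r of log2(TPM + 1) were g13570.t1 (0.990) and g8789.t1 (0.990). Those most like *bFtz-F1* were g3893.t1 (0.945) and g6735.t1 (0.939), and those most like *EcR* g8354.t1 were g759.t1 (0.980) and g5173.t1 (0.976). These values describe 18 libraries that share days and depths, and all members were chosen for a course that these genes also have. g13570.t1, with a coding sequence of 4785 bases, had 0.178, 0.230 and 0.147 TPM at Juvenile 2d, 45.2, 101 and 16.5 TPM at 3d, and 353, 192 and 194 TPM at 4d. Later it had 33.2, 18.7 and 56.1 TPM at Juvenile 5d, 0.997, 5.95 and 107 TPM at 6d, and 59.1, 81.5 and 30.5 TPM at 7d. As in *HR3*, Juvenile 6d replicate 3 was the high library of its day.

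g3893.t1, closest to *bFtz-F1*, had 0, 0.234 and 0 TPM at Juvenile 2d, 0.836, 2.02 and 0.629 TPM at 3d, and 28, 27.4 and 32.3 TPM at 4d. Past the peak its libraries held 2.43, 4.00 and 2.16 TPM at Juvenile 5d, 0.183, 0.624 and 10.1 TPM at 6d, and 1.06, 8.75 and 6.35 TPM at 7d. Its 3 values at Juvenile 4d stood above all others. g759.t1, closest to *EcR* g8354.t1, had 0.668, 0.478 and 0.457 TPM at Juvenile 2d, 96.7, 20.7 and 3.82 TPM at 3d, and 595, 242 and 365 TPM at 4d. The following days gave it 81.1, 80.0 and 88.6 TPM at Juvenile 5d, 11.9, 125 and 29.1 TPM at 6d, and 11.7, 56 and 103 TPM at 7d. Its values at Juvenile 5d were within a narrow range, and replicate 2 was the high library of Juvenile 6d.

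Between the mean z of the members and that of the 12 pathway transcripts, Pearson's r was 0.954 and Spearman's rho 0.847 over 18 libraries. Juvenile 2d was lowest and 4d highest in both. The members were chosen by these 2 days, so part of the agreement over 18 libraries follows from the rule. Over the 12 libraries of the other 4 days r was 0.803 and rho 0.510, and without the 2 libraries farthest out in the pathway r was 0.696. In the same 12 libraries r with the total of counts was -0.665 and rho -0.483, and the part of depth was not tested.

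Early and late members ran with different pathway transcripts. Over the 12 libraries of Juvenile 3d, 5d, 6d and 7d the mean of the early members followed *E78*, a nuclear receptor, with an r of 0.922 and a rho of 0.951, and *sad* with an r of 0.915 and a rho of 0.916. The mean of the late members followed *E74* with an r of 0.868 and a rho of 0.853, and *EcR* g8354.t1 with an r of 0.845 and a rho of 0.776. Without the 2 libraries farthest out these values of r were 0.955, 0.896, 0.949 and 0.953. With *E78* the late members had an r of -0.669. The classes were set by Juvenile 3d and 5d, whose libraries are among these 12, so part of each r follows from the classes. The sharp members were closest to *HR4*, with an r of 0.843, a rho of 0.867 and an r of 0.652 without the 2 libraries farthest out. The 6 libraries of Juvenile 6d and 7d did not enter the classes. In these alone r for early members was 0.981 with *HR3*, 0.922 with *sad* and 0.899 with *E78*. For late members it was 0.839 with *E74* and 0.718 with *EcR* g8354.t1, and for sharp members 0.978 with *HR4*. *E78*, *sad*, *E74* and *HR4*, and the pair of *HR3* with the early members, were picked out after these values were seen. In all, 36 pairs of a class and a transcript were computed.

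**Figure D4:**
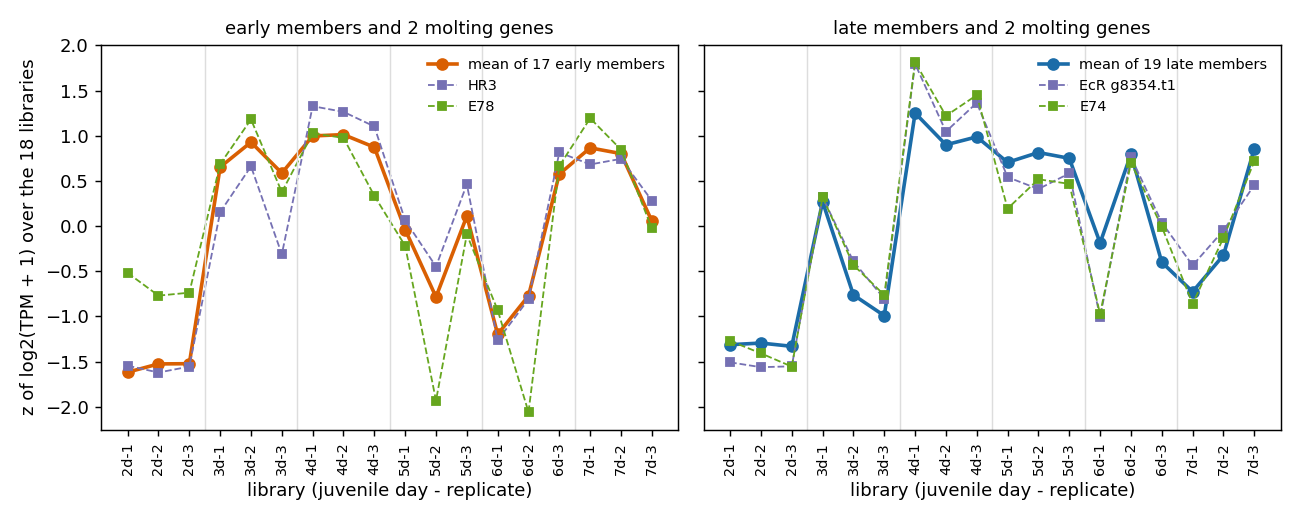
Mean z of the 17 early members with *HR3* and *E78* (left) and of the 19 late members with *EcR* g8354.t1 and *E74* (right) in the 18 libraries, by juvenile day and replicate. The vertical axis is log2(TPM + 1) scaled to z over the libraries. At Juvenile 6d the early members and *HR3* are highest in replicate 3 and the late members and *E74* in replicate 2.

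Juvenile 5d was set against 3d to see on which side of the peak the members stood higher. By edgeR's quasi-likelihood test, with p-values adjusted after Benjamini and Hochberg across the 10436 transcripts and called up to 0.05, 8 of the 150 members rose (5.33%) and 1 fell (0.667%). Across the whole table, 11.5% of transcripts were called higher and 7.97% lower, and both shares of the members lay below these. The fold changes were large and imprecise. The median log2 fold change was 0.87 in the members and -0.02 in all transcripts tested, 98 members were higher and 52 lower in the fitted value, and the median standard error was 0.92 against 0.29 in all transcripts tested. The median of the members was 0.35 on dropping Juvenile 3d replicate 3 and 1.32 on dropping 3d replicate 1. Of the 12 pathway transcripts, *E75*, *HR4* and *USP/RXR* g11953.t1 rose and *sad* fell.

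g945.t1 had the smallest p. It had 78.5, 45.6 and 52.4 TPM at Juvenile 5d, against 14.9, 5.67 and 2.23 TPM at 3d, and the groups did not overlap (log2 fold change 2.98 ± 0.63 SE, edgeR adjusted p = 0.00469). g5955.t1 had 189, 104 and 127 TPM at Juvenile 5d, against 34.4, 31.2 and 10.7 TPM at 3d (2.47 ± 0.55 SE, edgeR adjusted p = 0.00633). g4402.t1 had 89.0, 67.0 and 61.7 TPM at Juvenile 5d, against 17.1, 8.57 and 11.7 TPM at 3d (2.53 ± 0.71 SE, edgeR adjusted p = 0.0216). All 3 were late members, a class set by these 2 days, and in each the 3 libraries of Juvenile 5d stood above those of 3d. The other 5 members that rose had log2 fold changes between 2.36 and 4.04. The call of g4402.t1 was lost without Juvenile 3d replicate 2 or 3 or 5d replicate 1, at an edgeR adjusted p of up to 0.0836.

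The member that fell, g9544.t1, was an early one. It had 56.8, 20.7 and 113 TPM at Juvenile 5d, against 298, 406 and 295 TPM at 3d (log2 fold change -2.39 ± 0.77 SE, edgeR adjusted p = 0.0423). Under 11 of the 18 left-out libraries its adjusted p passed 0.05, up to 0.151 without Juvenile 5d replicate 2.

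The count of members that rose moved with single libraries. Dropping replicate 2 or 3 of Juvenile 3d left 2, where 7.25% and 7.52% of all transcripts were called higher. Dropping replicate 1, 2 or 3 of Juvenile 5d left 3, 4 or 5, beside 7.65%, 8.23% and 9.94% of all transcripts. Dropping replicate 1 of Juvenile 3d gave 17, beside 9% of all transcripts, and dropping replicate 1 of Juvenile 6d gave 20, beside 15.8%. The count that fell became 6 on dropping Juvenile 7d replicate 3, 9 on dropping 6d replicate 1 and 20 on dropping 6d replicate 3, libraries that are on neither day. In these fits 10.3%, 11.5% and 9.49% of all transcripts were called lower. The count became 2 on dropping Juvenile 5d replicate 3 or 6d replicate 2, where 6.54% and 7.86% of all transcripts were called lower. It became 0 on dropping replicate 2 or 3 of Juvenile 2d, replicate 2 of 5d or 7d, or any library of 3d or 4d. The fits with 0 called between 3.41% and 7.53% of all transcripts lower. Without both Juvenile 6d replicate 1 and 7d replicate 3, 24 rose and 19 fell, where 18.8% of all transcripts were called higher and 16.7% lower. DESeq2 called 18 members higher and 8 lower (12% and 5.33%), against 13.5% and 8.89% of all transcripts.

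After the peak had passed, most members stood lower at Juvenile 6d than at 5d in the fitted value, and few passed the test. In Juvenile 6d against 5d, 0 members rose and 3 of 150 fell (2%) by edgeR, against 4.91% called higher and 3.73% called lower in the whole table. At an unadjusted p under 0.05, 0 members were higher and 13 lower (8.67%), against 15.3% and 10.3% of all transcripts, and both DESeq2 and limma also called 0 higher. The median log2 fold change was -0.77 in the members, 123 of them negative, and 0.04 in all transcripts tested. Of the 12 pathway transcripts, *EcR* g12979.t1 rose and 0 fell.

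g12958.t1, rank 11, had 16.9, 78.3 and 132 TPM at Juvenile 6d, against 301, 224 and 327 TPM at 5d (log2 fold change -2.13 ± 0.46 SE, edgeR adjusted p = 0.0132). g5955.t1 had 8.91, 30.3 and 70.6 TPM at Juvenile 6d, against 189, 104 and 127 TPM at 5d (-2.16 ± 0.54 SE, edgeR adjusted p = 0.0260). g1166.t1 had 2.24, 6.54 and 10.4 TPM at Juvenile 6d, against 19.9, 9.07 and 15 TPM at 5d (-1.40 ± 0.40 SE, edgeR adjusted p = 0.0445). The groups did not overlap in g12958.t1 and g5955.t1 and overlapped in g1166.t1, whose adjusted p was above 0.05 under 14 of 18 left-out libraries. The call of g5955.t1 was lost without Juvenile 5d replicate 1 or 2 or 6d replicate 2, at an edgeR adjusted p of up to 0.0957.

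Dropping Juvenile 6d replicate 3 gave 23 members that fell, where 3.23% of all transcripts were called lower. Dropping 6d replicate 2 gave 5, beside 1.96% of all transcripts, and dropping replicate 1 or 2 of Juvenile 5d gave 1, beside 1.24% and 1.75%. Without Juvenile 6d replicate 1, 2 members rose and 2 fell, where 13.4% of all transcripts were called higher and 13.1% lower. The median log2 fold change of the members was -0.36 in that fit and -1.52 without 6d replicate 3. With only the libraries of Juvenile 5d and 6d in the fit, 0 of the 144 members tested fell, beside 0.0714% of all transcripts.

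Juvenile 7d against 6d gave no call. By edgeR 0 members rose and 0 fell, as did 0.0% and 0.0% of all transcripts tested, with 16 members higher (10.7%) and 0 lower at an unadjusted p under 0.05, against 3.46% and 6.69% of all transcripts. The 16 include g4228.t1 and g4231.t1, which had the same log2 fold change (2.62 ± 0.75 SE). DESeq2 and limma also called 0 members in either direction, with 22 and 48 higher at an unadjusted p under 0.05 (14.7% and 32%), against 4.14% and 5.17% of all transcripts. The median log2 fold change was 0.50 in the members, 104 of them positive, and -0.01 in all transcripts tested. It depended on single libraries. Dropping replicate 1, 2 or 3 of Juvenile 6d made it 0.02, 0.87 or 1.37, dropping 7d replicate 3 made it 0.13, and it turned to -0.34 without both Juvenile 6d replicate 1 and 7d replicate 3. Without Juvenile 6d replicate 3, 43 members rose, where 1.86% of all transcripts were called higher, and without both Juvenile 6d replicate 1 and 7d replicate 3, 3 members rose, where 2.11% of all transcripts were called higher. Of the 12 pathway transcripts 0 were called.

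The early members were higher at Juvenile 7d than at 6d in 17 of 17 fitted values, the median being 1.78 on the log2 scale with a median standard error of 1.01. They stayed at 17 of 17 without any single library of Juvenile 6d or 7d, with medians between 1.32 and 4.45. These members moved together by library and are not independent, so the 17 are not replicates. Their median level overlapped between the days, at 121.0 TPM in Juvenile 6d replicate 3 and 48.7 TPM in 7d replicate 3. Of the late members 8 of 19 were higher at Juvenile 7d than at 6d, with a median log2 fold change of -0.09. This count moved between 1 of 19 without Juvenile 7d replicate 3 and 16 of 19 without 6d replicate 2. No member of either class was called.

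The comparisons of Juvenile 5d against 3d and of 7d against 6d share no library. The 52 members that were lower at Juvenile 5d than at 3d in the fitted value were all higher at Juvenile 7d than at 6d. Of the 98 that were higher at Juvenile 5d than at 3d, 52 were higher at Juvenile 7d than at 6d. That second count moved with single libraries: it was 25 of 98 without Juvenile 6d replicate 1, 83 without 6d replicate 2, 77 without 7d replicate 1, 30 without 7d replicate 3 and 16 without both 6d replicate 1 and 7d replicate 3. Across the 150 members Pearson's r of the log2 fold changes was -0.755 and Spearman's rho -0.788, against -0.193 and -0.168 across all 10436 transcripts tested. Members are not independent of each other. Pearson's r of the members was -0.289 on dropping Juvenile 6d replicate 2, -0.591 on dropping 7d replicate 1 and -0.622 on dropping 3d replicate 2. It was -0.674 on dropping 7d replicate 2 and -0.681 on dropping 6d replicate 3. Dropping any other single library gave an r between -0.705 and -0.832. Without both Juvenile 6d replicate 1 and 7d replicate 3 it was -0.752, and 51 of 52 members lower at Juvenile 5d were higher at 7d. The same count was 49 of 52 on dropping 5d replicate 2, 43 of 45 on dropping 3d replicate 2 and 60 of 62 on dropping 3d replicate 3.

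**Figure D5:**
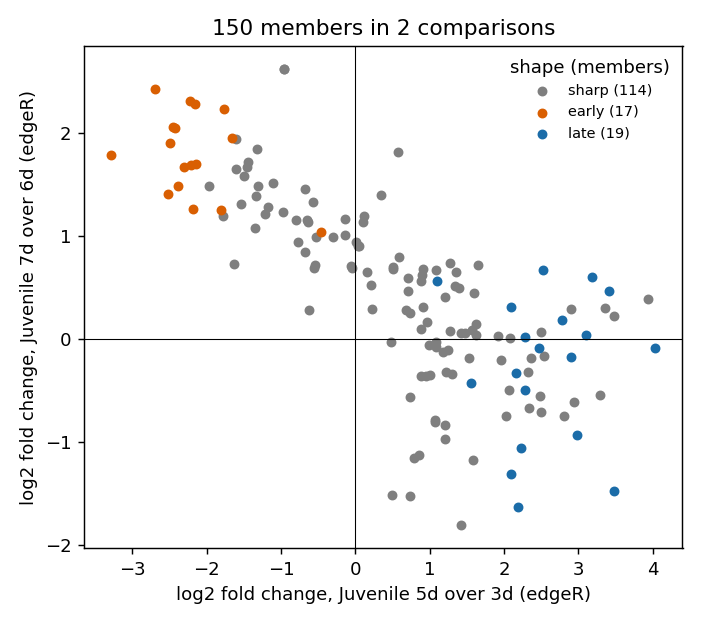
Log2 fold change of Juvenile 7d over 6d (vertical) against that of Juvenile 5d over 3d (horizontal) for the 150 members, by edgeR, coloured by the shape of their course. The 52 points left of the vertical line all lie above the horizontal line, and the 17 early members are among them.

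Some features of the members did not enter the rule. Their coding sequences had a median length of 1009.5 bases, against 1146 bases in the 7390 genes that could be members, and 23.3% were under 600 bases against 17.1%. In the 150 transcripts chosen by the same rule with the peak at Juvenile 2d and the low at Juvenile 4d, the median was 1014 bases and 20% were under 600 bases. At least 1 library had a count that was not whole, a sign that reads were shared with a similar transcript, in 6% of the members, 3.69% of the genes that could be members and 2.67% of the opposite set. g4228.t1 and g4231.t1 had the same log2 fold change and standard error in each comparison tested. They were counted as separate members, though they may not be separate signals.

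Some members carried neighbouring identifiers. Of the 150, 27 (18%) had another member within 2 gene numbers, against 10 (6.67%) of the 150 with the opposite course. They formed 13 runs, 12 of 2 members and 1 of 3, and 9 of the runs were in direct succession. Gene numbers were read as an order only, and the distance between genes in the genome was not used here.

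The run of 3 held g7887.t1, g7889.t1 and g7890.t1. g7887.t1 was the strongest, with 7.99, 8.37 and 9.01 TPM at Juvenile 2d, 192, 87 and 24.9 TPM at 3d, and 1360.0, 785 and 915 TPM at 4d. g7889.t1 averaged 51.4 ± 14.3 TPM at Juvenile 4d and g7890.t1 426 ± 181 TPM. In all 3 Juvenile 6d replicate 2 was the highest library of its day. Over the 18 libraries r was 0.896 between g7887.t1 and g7889.t1 and 0.834 between g7889.t1 and g7890.t1.

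Of the 12 runs of 2 members, the 2 with the lowest gene numbers were named. The first held g328.t1 and g329.t1, and the next held g338.t1 and the late member g340.t1. g328.t1 and g329.t1 averaged 116 ± 46.6 and 209 ± 118 TPM at Juvenile 4d, and r between them was 0.970. g338.t1 averaged 75.4 ± 27.8 TPM at Juvenile 4d and g340.t1 983 ± 395 TPM, with an r of 0.955. g328.t1 had its highest library of each of the last days in common with g340.t1: it had 20.8, 137 and 0.176 TPM at Juvenile 6d and 0, 0.547 and 178 TPM at 7d. Over the 14 neighbouring pairs the median r was 0.918, from 0.779 to 0.977, against a median of 0.799 over all 11175 pairs of members. The pairs were not compared by a test.

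Most members were chosen under other settings as well. A pseudocount of 0.1 in place of 1 in the ranking kept 128 of the 150, medians in place of means kept 136, and CPM after TMM normalization in place of TPM, with the same limits on the mean, kept 122. Leaving out each library in turn kept between 139 and 150.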

How the data were processed

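RNA of whole juveniles was amplified with a low-input full-length cDNA kit and sequenced as single-end reads. The authors ran kallisto against predicted coding sequences (the submitters' notes name kallisto 0.42.4 and 0.44.0 and bcl2fastq 2) and deposited, per library, estimated counts without normalization. TPM values, also deposited, are derived by kallisto from estimated counts and effective lengths. Amplification before sequencing can widen the spread of low transcripts. The paper's methods give days 3 to 7 for the juveniles, the labels days 2 to 7, and the labels were used. Data of other stages and species were not used here.

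The members and lists were chosen with earlier results of these data known, and the 12 molting pathway transcripts come from the study. Estimated counts were rounded for edgeR 4.0.16 under R 4.3.3 (TMM, filterByExpr with a minimum count of 10, quasi-likelihood F test, day as the only term, all 18 libraries), with Benjamini-Hochberg adjustment over the 10436 transcripts tested and calls at an adjusted p of up to 0.05. The common dispersion was 0.112. Standard errors are the size of a log2 fold change over the root of its F value. The code was tested on simulated data. Alternatives were DESeq2 1.42.0, limma 3.58.1 on log2(TPM + 1), RLE factors, no filter, only the libraries compared, a replicate term, and each library left out.

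Library totals lay between 1250604 and 5095736 counts, and a count of 0 allows up to 3 counts. A count was called not whole where it differed from a whole number by more than 0.001. Intervals are exact Poisson intervals at 95% and, like the floor, cover counting error only.

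Transcripts were named by rule: the 15 highest ranked, the 3 with the highest mean, those at the border of rank 150, up to 3 called in each direction by smallest p, the first 2 of each shape, the 3 longest runs of neighbouring gene numbers, and the 2 most like each of *HR3*, *bFtz-F1* and *EcR* g8354.t1. Runs of equal length were taken from the lowest gene number. Outside the rule, g4228.t1 and g4231.t1 were named after their values were seen.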

Additional observations from a re-analysis of the deposited data

How the results depend on the processing

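Depth limits the low end, since most members had few or no counts at Juvenile 2d, and the spread between libraries limits the rest. When single libraries were left out, the members that rose in Juvenile 5d against 3d numbered 2 to 20 and those that fell 0 to 20. The same fits called 7.25% to 15.8% of all transcripts higher and 3.41% to 11.5% lower. In Juvenile 6d against 5d 0 to 2 rose and 1 to 23 fell, beside 0.984% to 13.4% and 1.24% to 13.1% of all transcripts. In Juvenile 7d against 6d 0 to 43 rose and 0 fell, beside 0 to 1.86% and 0 to 2.35% of all transcripts. Between 139 and 150 members were kept.

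For Juvenile 5d against 3d the counts were 18 higher and 8 lower with DESeq2, 24 and 19 with only the libraries of the 2 days, and 10 and 2 with limma. The same fits called 13.5% higher and 8.89% lower, 17.8% and 14.8%, and 9.64% and 7.68% of all transcripts. For Juvenile 6d against 5d DESeq2 called 6 lower and the fit of only those days 0, beside 6.2% and 0.0714% of all transcripts. The setting without both Juvenile 6d replicate 1 and 7d replicate 3 was chosen after the data were seen. There 24 rose and 19 fell in Juvenile 5d against 3d, beside 18.8% and 16.7% of all transcripts. In 6d against 5d 2 rose and 2 fell, beside 19% and 16.5% of all transcripts. In 7d against 6d 3 rose and 0 fell, beside 2.11% and 3.08%. RLE factors and no filter kept every count within 1.5 times. The causes were not tested. Positions on the log2 scale gave 10 sharp, 7 early and 39 late members and 94 with both days at 50% or above, and a threshold of 33% in place of 50% gave 90 sharp, 29 early, 30 late and 1 with both.

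Replicate numbers are shared by all days, but the labels do not say that a number marks a batch. Libraries of different days were correlated on the deviations of log2 CPM from the day mean of each transcript. The 45 pairs with the same number had correlations from -0.317 to 0.196, with 3 over 0.1. The 90 pairs with different numbers had correlations from -0.376 to 0.407, with 18 over 0.1. For 3 of 18 libraries the highest of these correlations was with a library of their own number. With the replicate block, 6 members rose and 0 fell in Juvenile 5d against 3d, beside 10.1% and 6.48% of all transcripts. In 6d against 5d 0 rose and 2 fell, beside 3.41% and 2.98% of all transcripts. In 7d against 6d 0 members and 0 of all transcripts were called.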
